A study of Homo sapiens with 9 samples.

Results

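The genes described here encode the receptors with which cells bind and take up collagen: the 4 collagen-binding integrin alpha chains ITGA1, ITGA2, ITGA10 and ITGA11, their common partner ITGB1, the discoidin domain receptors DDR1 and DDR2, and the endocytic receptor MRC2. Members were all probe sets of the array that the supplied platform annotation assigns to only one of these genes. That gave 22 probe sets of the 41091 assigned to 1 gene, and they covered 7 of the 8 genes. DDR1 had none: the 4 probe sets that list it also list MIR4640, a microRNA gene lying inside DDR1 in the RefSeq table of GRCh38.p14, so no level of DDR1 is given. The 22 comprised 7 probe sets of ITGB1, 4 of DDR2, 3 each of ITGA1 and ITGA11, 2 each of ITGA2 and MRC2, and 1 of ITGA10.

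Expression had been measured in HT1080, an established human fibrosarcoma line, cultured on top of a thick gel of fibrillar bovine dermal collagen. The groups were cells given a protease inhibitor mix (PI) for 24 h, cells given the mix for 4 h, and untreated cells, with 3 arrays each. The mix held GM6001 at 100 µM against metalloproteinases, E64 at 250 µM against cysteine proteases, pepstatin A at 50 µM against aspartic proteases, and aprotinin and leupeptin at 2 µM each against serine and some cysteine proteases. All 3 groups shared the same gel, prepared at 1.7 mg/ml, medium with 10% serum and 24 h of adhesion before treatment. Sample titles call the untreated cells vehicle, without saying which, and no label states when they were harvested. The design text speaks of a kinase inhibitor cocktail, whereas the list of compounds and the series title name protease inhibitors. All cells came from 1 line, and the design text calls the replicates biological. Nothing says that they came from separate cultures, so the p-values measure the spread between these samples, part of which may be technical.

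Collagen-binding integrins are pairs of one alpha chain and the beta 1 chain. The alpha chains that bind collagen carry an extra inserted domain that holds the triple helix, and the short tail of beta 1 links the pair to actin through talin and kindlin. Beta 1 is made in excess and also pairs with alpha chains that bind laminin and fibronectin, so its level is not that of the collagen receptors alone. DDR1 and DDR2 are receptor tyrosine kinases that are switched on by native collagen. MRC2, also called Endo180 or uPARAP, carries collagen and its fragments into the cell, where lysosomal cathepsins cut them. Cysteine cathepsins are inhibited by E64 and metalloproteinases by GM6001, so both the lysosomal and the surface route of collagen breakdown were targets of the mix.

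The promoters of ITGB1 and ITGA2, which encode the chains of one collagen I receptor and are the members described first, are shown as the 250 bases before the most upstream listed start, taken from the RefSeq-based table of GRCh38.p14. ITGB1 lies on the minus strand (chr10:32958231-32958480) and ITGA2 on the plus strand (chr5:52989102-52989351), and both are printed 5′ to 3′ along their own strand. Capitals mark every match to GGGCGG, the core of a GC box, or to GGAATG, the core of a TEAD site, on either strand.
ITGB1: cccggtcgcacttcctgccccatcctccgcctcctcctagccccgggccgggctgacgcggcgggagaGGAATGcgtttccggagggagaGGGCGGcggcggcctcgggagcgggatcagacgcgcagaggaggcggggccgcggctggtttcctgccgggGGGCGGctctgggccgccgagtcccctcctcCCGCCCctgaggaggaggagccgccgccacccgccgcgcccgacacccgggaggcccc
ITGA2: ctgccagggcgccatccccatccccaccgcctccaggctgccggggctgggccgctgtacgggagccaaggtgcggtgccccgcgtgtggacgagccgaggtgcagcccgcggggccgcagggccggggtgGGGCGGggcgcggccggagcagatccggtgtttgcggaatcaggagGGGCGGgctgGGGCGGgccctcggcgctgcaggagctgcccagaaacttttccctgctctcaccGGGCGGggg
Both windows were rich in G and C, at 78.4% for ITGB1 and 76.4% for ITGA2. GGGCGG occurred 3 times before ITGB1 and 4 times before ITGA2, and 42.6% of 35116 listed promoters held it in the same window. GGAATG occurred once before ITGB1, as in 11.9% of promoters, and was not in the ITGA2 window. TGANTCA, the letters bound by AP-1, and TATAAA, the TATA box, were in neither window, and 6.57% and 10.7% of promoters held them.

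Some array-wide measures moved with treatment. The values are linear intensities, scaled before deposit so that every array has the same trimmed mean of 100, and a change in total messenger RNA is removed. With bulk RNA, fewer cells with a transcript and less of it per cell cannot be told apart. Poly-A spike RNAs, which are added during preparation, were 2.28-fold brighter at 24 h and 1.75-fold brighter at 4 h than in untreated cells (exact two-sided permutation p = 0.1 each, the smallest that 3 against 3 arrays allow). Hybridization controls were 1.12-fold brighter at 24 h and 1.08-fold brighter at 4 h than in untreated cells (exact permutation p = 0.2 each). ACTB probe sets at the 5′ and 3′ ends, whose ratio tracks RNA quality, gave a ratio of 0.697 ± 0.038 at 24 h, 0.723 ± 0.132 at 4 h and 0.893 ± 0.034 in untreated cells (SD, n = 3; exact permutation p against untreated of 0.1 and 0.2). For GAPDH the same ratio lay between 1.05 and 1.10 on all arrays, but it moved opposite to ACTB. It was 1.079 ± 0.018 at 24 h, 1.074 ± 0.029 at 4 h and 1.049 ± 0.0008 in untreated cells. All 24 h arrays lay above all untreated arrays (exact permutation p against untreated of 0.1 at 24 h and 0.3 at 4 h). Replicate 2 of the 4 h group stood apart from its group, at 0.871 for ACTB and on the untreated side of the first principal component (-13.3, beside 8.56 and 15.7 for the other two 4 h arrays). Of 7 mesenchymal markers none passed with limma at either time (4 at 24 h and 0 at 4 h under an unadjusted p of 0.05), and 4 lay above 0 and 3 below at both times. They summed to between 29093.3 and 30567.1 at 24 h, 26914.7 and 31713.3 at 4 h, and 24486.1 and 27988.2 in untreated cells. Most of each sum came from VIM and LGALS1, with means over the 9 arrays of 10469 and 9593. CDH2, N-cadherin, stood at 326 ± 25.6, 245 ± 60.8 and 203 ± 9.5 in 24 h, 4 h and untreated cells, and FN1, fibronectin, at 974 ± 80.9, 1772 ± 361 and 1399 ± 131.5. All 7 epithelial markers had means below 16, and so had 4 of 6 endothelial, 5 of 6 haematopoietic and 4 of 5 muscle markers. Of the 7 mesenchymal markers 1 did, NT5E, with a mean of 5.81. The endothelial markers summed to between 88.3 and 134 at 24 h, 80.1 and 128 at 4 h, and 49.8 and 62.4 in untreated cells, led by PECAM1 at 51.1 ± 4.1, 35.0 ± 12.6 and 26.5 ± 7.2, while the mean of CDH5 was 9.23 or lower in every group. What part spike level, RNA quality or these markers have in the results was not tested.

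None of the 7 genes and none of the 22 probe sets passed the test in any comparison. The test was limma on log2(intensity + 16), fitted across 19775 genes, each represented by its brightest probe set, and separately across all 41091 probe sets, with Benjamini-Hochberg adjusted p under 0.05. At 24 h against untreated, 0.47% of all genes and 0.11% of all probe sets passed. At 4 h against untreated the shares were 0.253% and 0.0389%, and at 24 h against 4 h they were 0.142% and 0.0365%. At an unadjusted p under 0.05, 4 of the 7 genes lay past the threshold at 24 h and 2 at 4 h, where 15.8% and 12.3% of all genes did, and 0 did at 24 h against 4 h, where 11.4% of all genes did. Of the 22 probe sets, 7, 5 and 4 lay past it in the same order of comparisons, beside 14.3%, 11.3% and 10.3% of all probe sets. The genes past it at 24 h were ITGA1, ITGA10 and ITGA11, all lower, and DDR2, which was higher. At 4 h they were ITGA11, lower, and DDR2, higher. With the mean over probe sets, ITGA10 alone lay past it at 24 h (limma unadjusted p = 0.0258). No gene did at 4 h (smallest 0.164), and ITGA1 did at 24 h against 4 h (0.0223). The genes were chosen with earlier results of these data known, so these counts do not show an excess. The smallest adjusted p of any member probe set was 0.104, for an ITGB1 probe set at 24 h. The median log2 change of the 7 genes was -0.27 at 24 h and -0.06 at 4 h, and that of all genes was 0.01 at both times. The comparisons at 24 h and 4 h share the untreated arrays and are not independent of each other.

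At 24 h all arrays lay below all untreated arrays in 5 of the 22 probe sets and above them in 1. Among all probe sets this held for 11.1% and 11.2%. Of the 5, 3 probe sets belong to ITGB1 and 1 each to ITGA10 and DDR2, so they represent 3 genes. The 1 above was a dim ITGB1 probe set. At 4 h the arrays lay below untreated in 3 and above in 2 of the 22 probe sets, beside 7.43% and 9.05% of all probe sets. Of the 22 probe sets, 7 averaged below the pseudocount of 16 over the 9 arrays. Without detection calls, such values cannot be told from background.

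**Figure D1:**
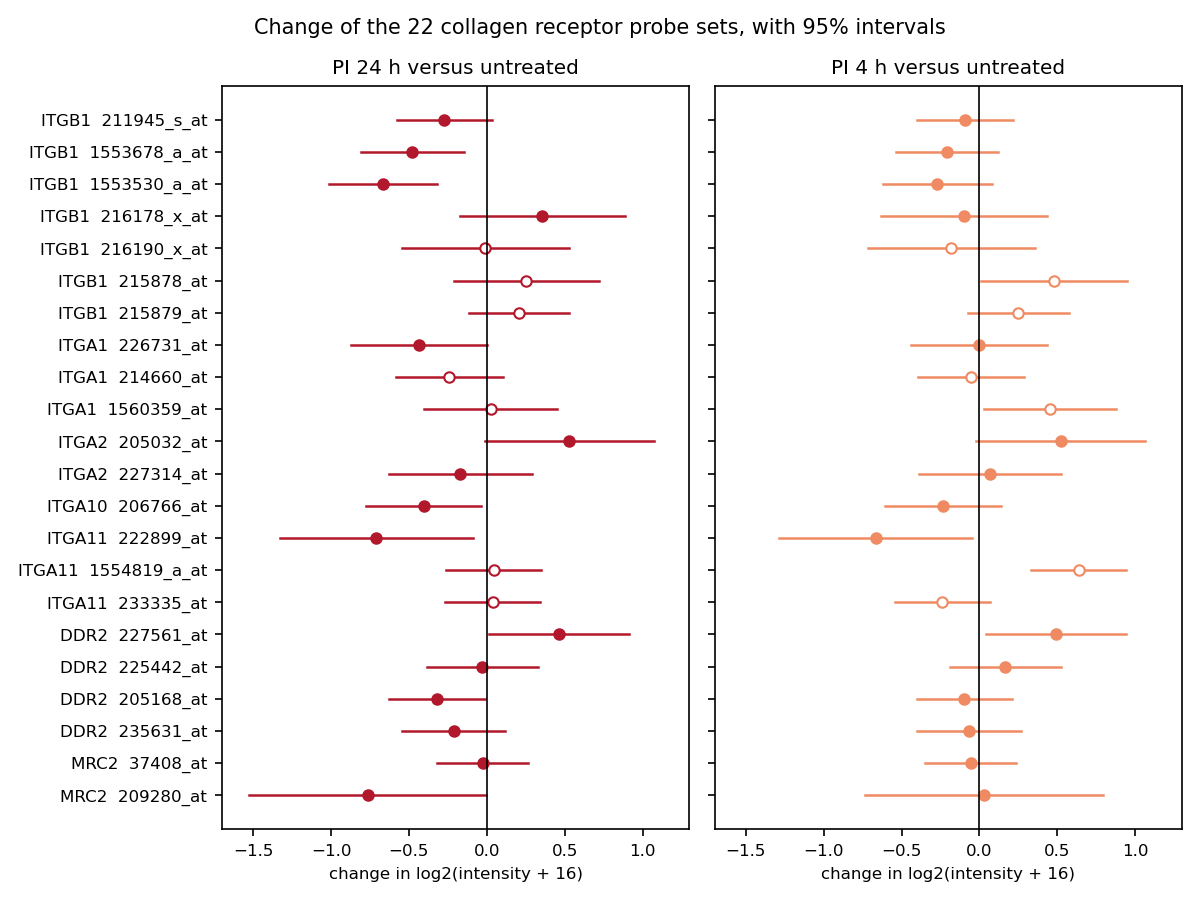
Change of each of the 22 probe sets in log2(intensity + 16), at 24 h (left) and 4 h (right) against untreated, with 95% intervals from limma; open circles have a mean below 16 over the 9 arrays. At 24 h the 3 bright ITGB1 probe sets lie between -0.67 and -0.27, whereas ITGA2 205032_at lies at 0.53 and ITGA2 227314_at at -0.17.

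ITGB1, the shared beta chain, had 3 bright probe sets with all 24 h arrays below all untreated arrays. The brightest, 211945_s_at, measured 2661.1, 2437.4 and 2561.2 at 24 h, 2425.0, 3018.1 and 3304.6 at 4 h, and 2993.5, 3195.4 and 3065.5 in untreated cells. All 24 h arrays lay below all untreated arrays, while the 4 h arrays spanned both. The log2 change at 24 h was -0.27 ± 0.13 (SE; 95% interval -0.57 to 0.03; adjusted p = 0.364 over genes with limma), and at 4 h it was -0.09 ± 0.13 (adjusted p = 0.845).

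The other bright probe sets of ITGB1 ran the same way with wider gaps. Probe set 1553530_a_at measured 733.4, 640.9 and 557.1 at 24 h, 700.4, 909.3 and 952.9 at 4 h, and 974.7, 1024.1 and 1079.0 in untreated cells. Its 24 h mean was 0.63 times the untreated mean on the fitted scale, a log2 change of -0.67 ± 0.16 (95% interval -1.01 to -0.32; adjusted p = 0.104 over probe sets). This was the one member that passed under any alternative, at a pseudocount of 64 (log2 change -0.63, adjusted p = 0.0333). Probe set 1553678_a_at measured 906.9, 721.7 and 741.4 at 24 h, 795.0, 1046.2 and 1030.9 at 4 h, and 1083.8, 1106.1 and 1111.2 in untreated cells, a log2 change of -0.48 ± 0.15 at 24 h (adjusted p = 0.181). In both, every treated array at either time lay below every untreated array. At 4 h the log2 changes of these probe sets were -0.27 ± 0.16 and -0.21 ± 0.15 (adjusted p = 0.565 and 0.656).

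The remaining 4 probe sets of ITGB1 were dim, with means over the 9 arrays of 20.6 for 216178_x_at and between 3.62 and 6.86 for the others. Probe set 216178_x_at ran opposite to the bright ones at 24 h, at 26.1, 25.4 and 30, against 18, 22.5 and 13.2 in untreated cells (log2 change 0.36 ± 0.24, adjusted p = 0.553). At 4 h it measured 24.8, 4.6 and 20.9, a range that covers the untreated arrays. With the mean over all 7 probe sets, ITGB1 changed by -0.087 at 24 h (adjusted p = 0.783) and -0.018 at 4 h.

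**Figure D2:**
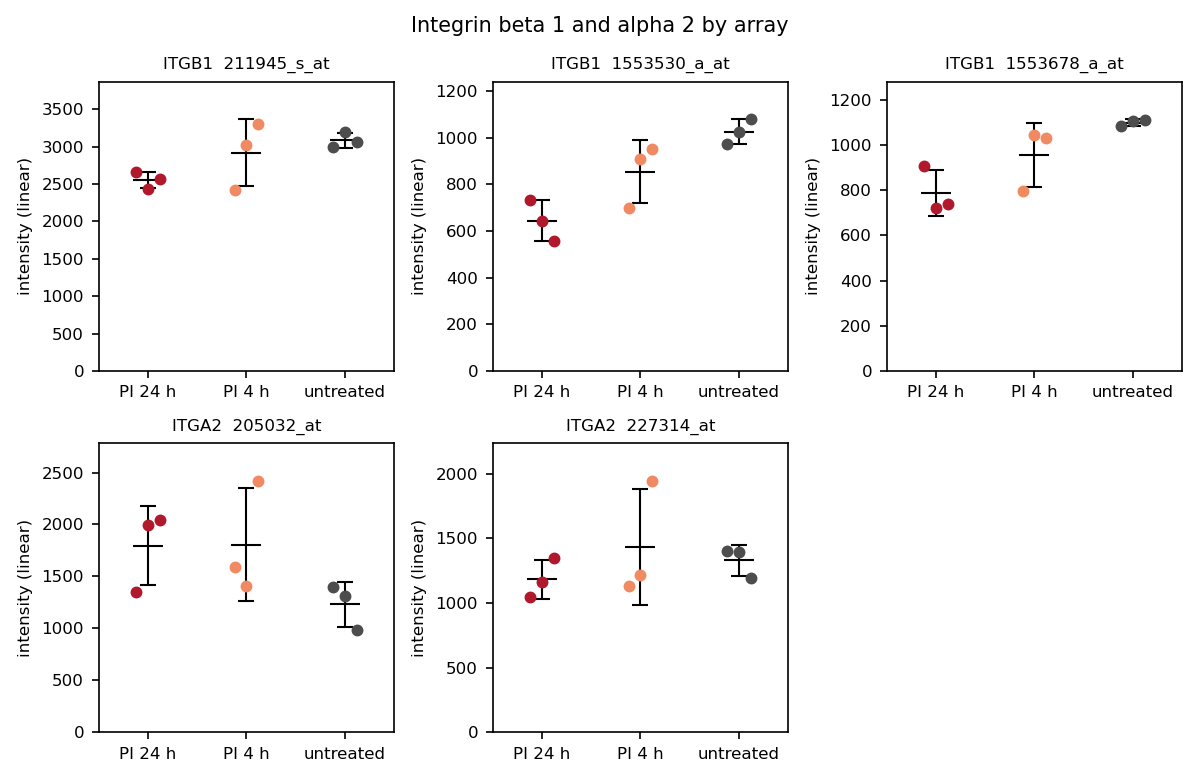
Linear intensity (y axis, from 0) of the 3 bright ITGB1 and both ITGA2 probe sets on the 9 arrays, by group (x axis); points are arrays, horizontal marks are means and bars are SD (n = 3). For each ITGB1 probe set all 24 h points lie below all untreated points, whereas in ITGA2 the 24 h and untreated points overlap.

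ITGA2 encodes the alpha 2 chain, which with beta 1 forms a main receptor for fibrillar collagen I. Its brightest probe set, 205032_at, measured 1355.3, 1994.1 and 2042.2 at 24 h, 1591.1, 1403.8 and 2420.7 at 4 h, and 1400.2, 1311.4 and 985.6 in untreated cells. All 4 h arrays lay above all untreated arrays, the lowest of them narrowly, and at 24 h one array fell within the untreated range. The log2 change was 0.53 ± 0.24 at 24 h (95% interval -0.01 to 1.07; adjusted p = 0.325 over genes) and 0.52 ± 0.24 at 4 h (adjusted p = 0.424).

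The second probe set of ITGA2 did not follow the first. Probe set 227314_at measured 1043.5, 1164.1 and 1344.9 at 24 h, 1134.0, 1220.8 and 1945.7 at 4 h, and 1403.1, 1397.6 and 1192.7 in untreated cells, and the 3 groups overlapped. Its log2 change was -0.17 ± 0.20 at 24 h (95% interval -0.63 to 0.29; adjusted p = 0.778) and 0.07 ± 0.20 at 4 h (adjusted p = 0.944). Replicate 3 of the 4 h group gave the highest value of all 9 arrays in both probe sets, and it also had the lowest ACTB 5′ to 3′ ratio, 0.615. With the mean over both probe sets, ITGA2 changed by 0.18 at 24 h (adjusted p = 0.767) and 0.29 at 4 h. For 205032_at alone, leaving out 1 array moved the 4 h change between 0.29, without replicate 3 of the 4 h group, and 0.68, without replicate 2.

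The log2 difference between probe sets of one gene was computed for 5 pairs, chosen after their values were seen and not tested. In 3 of them all treated arrays lay apart from all untreated arrays. How often this holds over all such pairs on the array was not computed, so the count does not show that these pairs are unusual. Set to a mean of 0 in untreated cells, 205032_at minus 227314_at of ITGA2 was 0.49, 0.89 and 0.72 on the 24 h arrays, 0.60, 0.32 and 0.43 on the 4 h arrays, and 0.12, 0.03 and -0.15 on the untreated arrays. All treated arrays lay above all untreated arrays. For ITGB1, 1553530_a_at minus 211945_s_at was -0.26, -0.33 and -0.59 at 24 h, -0.19, -0.14 and -0.20 at 4 h, and -0.03, -0.05 and 0.08 in untreated cells, so that none of the 3 groups overlapped. For DDR2, 227561_at minus 205168_at was 0.59, 0.81 and 0.95 at 24 h, 0.42, 0.20 and 1.14 at 4 h, and 0.15, -0.12 and -0.03 in untreated cells. The other pairs did not separate at both times. ITGB1 1553678_a_at minus 211945_s_at was -0.06, -0.26 and -0.29 at 24 h, -0.12, -0.04 and -0.19 at 4 h, and 0.02, -0.04 and 0.02 in untreated cells, overlapping at 4 h. MRC2 209280_at minus 37408_at was -0.81, -0.42 and -0.98 at 24 h, -0.23, 0.33 and 0.16 at 4 h, and 0.02, -0.75 and 0.73 in untreated cells, overlapping at both times. Replicate 2 of the 4 h group, whose ACTB ratio of 0.871 was near the untreated mean, had the smallest shift of the 6 treated arrays in each of the 3 pairs that separated. The part of RNA quality in these differences was not tested, and the stretch of transcript that each probe set covers was not analysed here.

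The balance between the chains of the alpha 2 beta 1 pair depended on the probe set. With 205032_at for ITGA2 and 211945_s_at for ITGB1, the log2 difference was 0.36, 1.04 and 1.00 at 24 h, 0.72, 0.23 and 0.88 at 4 h, and 0.24, 0.05 and -0.29 in untreated cells. The 24 h arrays lay above the untreated ones. With 227314_at for ITGA2 it was -0.13, 0.15 and 0.28 at 24 h, 0.12, -0.09 and 0.45 at 4 h, and 0.12, 0.02 and -0.14 in untreated cells, and all groups overlapped. With 227314_at and ITGB1 1553530_a_at it was 0.13, 0.48 and 0.88 at 24 h and 0.31, 0.05 and 0.65 at 4 h. In untreated cells that difference was 0.15, 0.07 and -0.23, and all groups overlapped. Other pairings of the bright probe sets are not given.

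**Figure D3:**
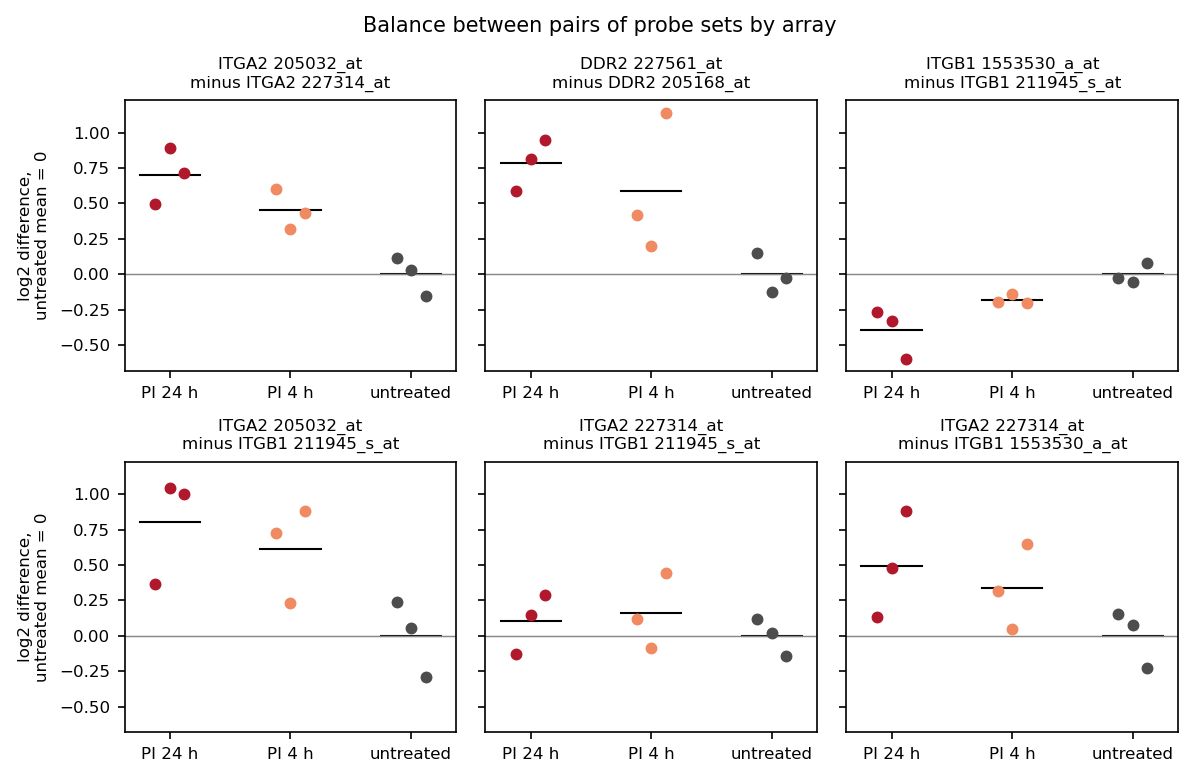
Log2 difference between pairs of probe sets on the 9 arrays (y axis, with the untreated mean set to 0) by group (x axis); points are arrays and lines are means (n = 3). The upper row pairs probe sets of one gene (ITGA2, DDR2, ITGB1), chosen after their values were seen, where no treated point overlaps the untreated ones. The lower row pairs ITGA2 with ITGB1, where only the left pair separates the 24 h from the untreated points.

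The other collagen-binding alpha chains had no member past the test either. ITGA10, a collagen-binding chain best known from cartilage, measured 89.9, 91.8 and 78.6 at 24 h, 106.4, 74.6 and 123.7 at 4 h, and 115.6, 114.3 and 130.6 in untreated cells. Its 24 h arrays lay below the untreated ones and its 4 h arrays spanned both. The log2 change was -0.41 ± 0.16 at 24 h (95% interval -0.77 to -0.04; adjusted p = 0.265) and -0.23 ± 0.16 at 4 h (adjusted p = 0.624). Without replicate 2 of the 4 h group the 4 h change was -0.056, and without replicate 3 it was -0.37.

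ITGA11, whose chain is the collagen I receptor of many fibroblasts, had 1 probe set clearly above 16 in untreated cells. Probe set 222899_at measured 15.5, 25.6 and 45.7 at 24 h, 23.1, 47.2 and 19.7 at 4 h, and 65.2, 44.4 and 55.9 in untreated cells. The groups overlapped through single arrays, with log2 changes of -0.71 ± 0.28 at 24 h (adjusted p = 0.252, the smallest of the 7 genes) and -0.67 ± 0.28 at 4 h (adjusted p = 0.371). The size depended on the scale: the 24 h change was -1.02 with a pseudocount of 1, -0.37 with 64 and -0.21 with the mean over the 3 probe sets, and the 4 h change was -0.94, -0.35 and -0.089 in the same order. A second probe set, 1554819_a_at, ran the other way at 4 h, at 23.0, 15.1 and 13.3, against 5.7, 4.6 and 5.1 in untreated cells, and it measured 4.3, 6.6 and 6.6 at 24 h. Its log2 change at 4 h was 0.64 ± 0.14 (adjusted p = 0.135), in a range near background. The third, 233335_at, stayed at or below 6.7 on every array.

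ITGA1, the alpha 1 chain, favours basement membrane collagen but also binds collagen I. Its brightest probe set, 226731_at, measured 34.3, 24.1 and 30.5 at 24 h, 34.3, 46.0 and 57.9 at 4 h, and 57.3, 49.2 and 32.6 in untreated cells. The groups overlapped, and the log2 change was -0.44 ± 0.19 at 24 h (95% interval -0.87 to -0.0026; adjusted p = 0.314) and -0.0037 ± 0.19 at 4 h (adjusted p = 0.997). The other probe sets of ITGA1 reached at most 16.2 on any array. With the mean over the 3 probe sets ITGA1 changed by -0.22 at 24 h and 0.13 at 4 h, and with a pseudocount of 64 its 24 h change was -0.23. In the RefSeq table the gene PELO and the antisense transcript ITGA2-AS1 overlap ITGA1, and ITGA2-AS1 also overlaps ITGA2; whether these probe sets see those transcripts was not tested.

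DDR2, the discoidin receptor of mesenchymal cells, had 4 probe sets that did not share a direction. The brightest, 227561_at, measured 209.5, 270.9 and 299.5 at 24 h, 238.9, 221.0 and 339.0 at 4 h, and 222.3, 170.3 and 158.6 in untreated cells. One array of each treated group fell below the highest untreated array, and the log2 change was 0.47 ± 0.20 at 24 h (95% interval 0.02 to 0.91; adjusted p = 0.296) and 0.49 ± 0.20 at 4 h (adjusted p = 0.362). Probe set 205168_at measured 90.7, 100.3 and 100.4 at 24 h, 119.9, 131.0 and 98.7 at 4 h, and 136.9, 128.6 and 111.0 in untreated cells. There the 24 h arrays lay below all untreated arrays (log2 change -0.32 ± 0.14, adjusted p = 0.328). Probe set 225442_at measured 98.9, 120.7 and 154.8 at 24 h, 128.4, 141.4 and 161.3 at 4 h, and 128.0, 121.0 and 128.4 in untreated cells. Its log2 change at 24 h was -0.03 ± 0.16, and that of the dimmest, 235631_at, was -0.21 ± 0.15 (adjusted p = 0.963 and 0.574). With the mean over the 4 probe sets DDR2 changed by -0.02 at 24 h (adjusted p = 0.956), beside 0.47 for the brightest alone, and by 0.12 at 4 h.

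MRC2, the receptor for collagen uptake, had 2 probe sets, and neither separated a treated group from the untreated arrays. Probe set 37408_at measured 262.3, 258.4 and 222.4 at 24 h, 238.9, 238.0 and 248.2 at 4 h, and 291.6, 241.4 and 227.4 in untreated cells. The 3 groups overlapped, and the 95% interval of the log2 change ran from -0.31 to 0.26 at 24 h and from -0.34 to 0.23 at 4 h (adjusted p = 0.946 and 0.908). The dim probe set, 209280_at, measured 11.9, 20.2 and 5.3 at 24 h, 22.2, 40.3 and 36.1 at 4 h, and 39.1, 10.9 and 55.3 in untreated cells. Untreated replicate 2 overlapped the 24 h arrays, and the log2 change at 24 h was -0.77 ± 0.34 (adjusted p = 0.349). That value was -1.32 with a pseudocount of 1 and -0.35 with 64, and leaving out 1 array gave -1.17, without untreated replicate 2, to -0.47, without untreated replicate 3. With the mean over both probe sets MRC2 changed by -0.40 at 24 h (adjusted p = 0.406), beside -0.03 for 37408_at alone.

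**Figure D4:**
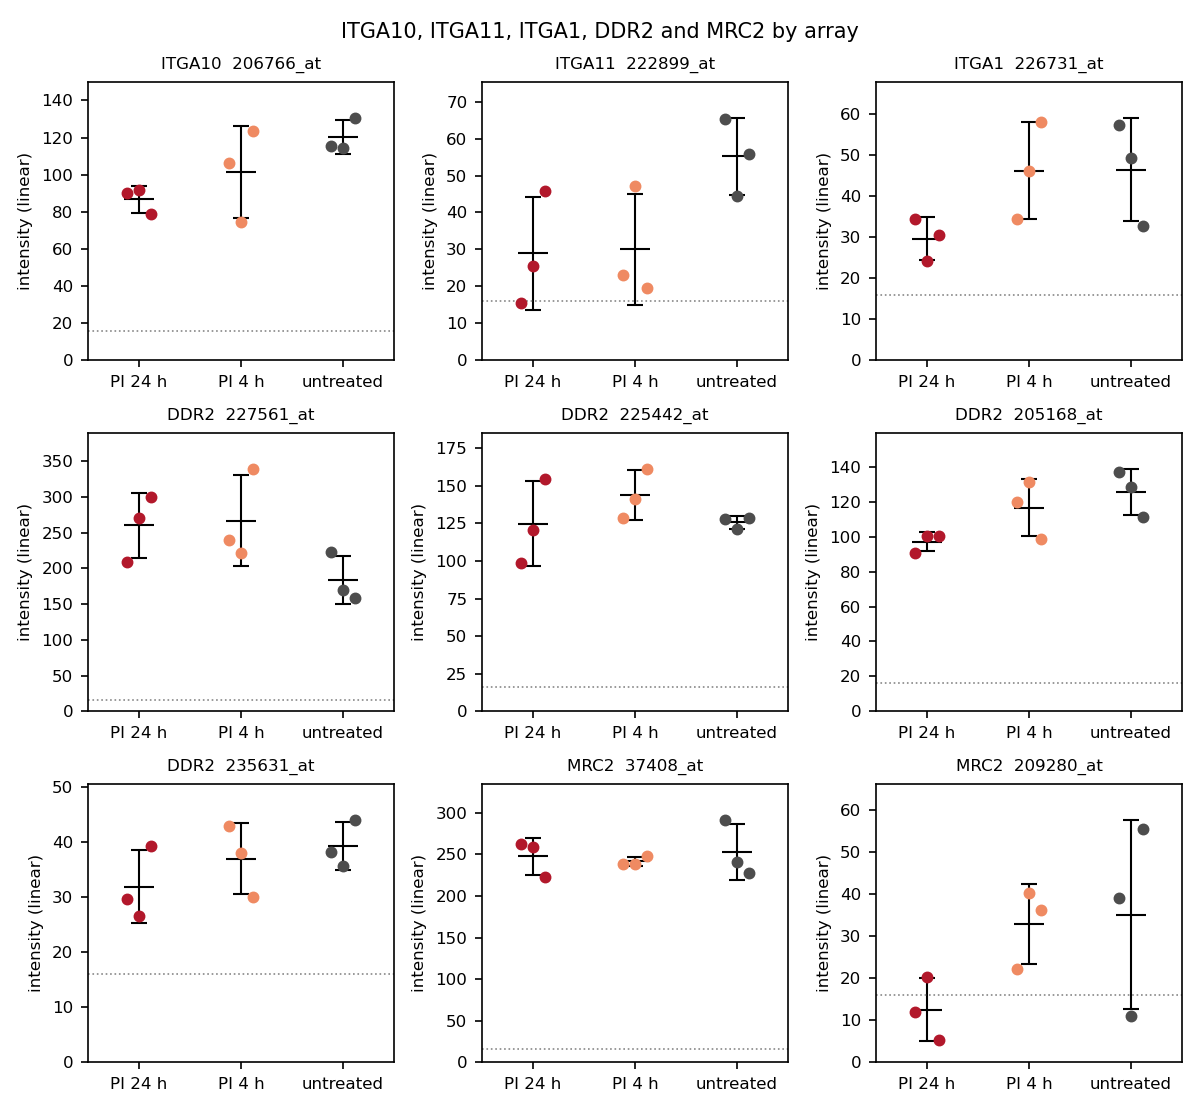
Linear intensity (y axis, from 0) of ITGA10, ITGA11, ITGA1, DDR2 and MRC2 probe sets on the 9 arrays, by group (x axis); points are arrays, horizontal marks are means, bars are SD (n = 3) and the dotted line is the pseudocount of 16. The 24 h points lie below all untreated points in ITGA10 and in DDR2 205168_at, and MRC2 37408_at stays between 222.4 and 291.6.

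Between 24 h and 4 h no member passed the test. The adjusted p of the 7 genes ran from 0.442, for ITGA1 (29.6 ± 5.2 at 24 h and 46.1 ± 11.8 at 4 h), to 0.995, for ITGA2 (1797 ± 383 and 1805 ± 541). In the order of its means ITGB1 211945_s_at stood at 2553 ± 112 at 24 h, 2916 ± 449 at 4 h and 3085 ± 102 in untreated cells. Neighbours in that order differed by less than the SD of the 4 h group. ITGA10 kept the same order of means, at 86.8 ± 7.1, 101.6 ± 24.9 and 120.2 ± 9.1. ITGA2 205032_at and DDR2 227561_at had nearly equal means at both times, with DDR2 at 260.0 ± 46.0, 266.3 ± 63.6 and 183.7 ± 33.9. Without replicate 2 of the 4 h group, no member gene or probe set passed in any comparison.

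For the 5 member genes that averaged above 64, the genes with the most similar pattern over the 9 arrays were ranked, as a description. Pearson's r was taken among 8268 other genes above 64, every gene read from its brightest probe set alone. The arrays share their scaling and their group structure, so such values are high for many genes. ITGB1 was most like DCK (r = 0.956), SCARB2 (0.924) and MED4 (0.920). ITGA2, read from 205032_at, was most like DPP8 (0.984), SRGAP1 (0.979) and CMTM6 (0.977). CMTM6 (0.978) and DPP8 (0.971) were also the nearest to DDR2, read from 227561_at, followed by SMC6 (0.971). ITGA10 was nearest to DPH5-DT (0.962), AKR1B10 (0.951) and VEPH1 (0.946). MRC2, with little spread, reached 0.852 with KDM5C, 0.848 with CEP120 and 0.827 with KATNAL1. Within ITGB1 the 3 bright probe sets correlated at 0.883 to 0.967, whereas the pair of ITGA2 reached 0.530 and DDR2 205168_at and 227561_at stood at -0.432.

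Genes around the receptors were read from lists of the pathway, chosen with earlier results of these data known. They were read by counts and by medians, beside a median of all genes of 0.01 at both times. How many lay under an unadjusted p of 0.05 is also given, where 15.8% of all genes did at 24 h and 12.3% at 4 h. Because of how the lists were chosen, a count above the share of all genes does not show that a list is unusual. Among other collagen receptors 1 of 6 measured genes fell at 24 h and 5 did not pass, where 0.253% of all genes fell, and 0 of 6 passed at 4 h (2 under the unadjusted p at each time, medians of -0.02 and 0.05). Of the 6, 3 averaged below 16 over the 9 arrays. The gene that fell was ADGRG1, an adhesion receptor that binds collagen III, at 96.0 ± 17.2 at 24 h, 176 ± 55.7 at 4 h and 271.9 ± 53.95 in untreated cells (log2 change at 24 h -1.36, limma adjusted p = 0.0423). It passed in 7 of 17 alternatives (adjusted p from 0.0103 to 0.182) and did not pass when any 1 of the 24 h or untreated arrays was left out (adjusted p from 0.104 to 0.182) or with the mean over its probe sets (0.0968). LAIR2, a soluble collagen-binding protein, stood at 22.7 ± 13.4, 42.6 ± 13.3 and 48.5 ± 17.4, and OSCAR, a receptor of osteoclasts, at 19.1 ± 8.8, 20.4 ± 3.7 and 9.77 ± 8.05.

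None of the 8 other alpha chains that pair with ITGB1 passed with limma at either time, and 2 at 24 h and 1 at 4 h lay under the unadjusted p. Their median log2 change was -0.25 at 24 h and -0.26 at 4 h, 5 and 7 of the 8 lying below 0, where 48.4% and 47.8% of all genes did. Of the 8, 3 averaged below 16 over the 9 arrays, and the median and the counts include them. ITGA3, which binds laminin with beta 1, stood at 288 ± 29.9 at 24 h, 321.5 ± 52.25 at 4 h and 459 ± 27.85 in untreated cells (adjusted p = 0.0802 at 24 h and 0.209 at 4 h), and ITGA6, another laminin-binding chain, at 375 ± 63.1, 472 ± 93.7 and 614 ± 24.0 (adjusted p = 0.101 and 0.407). Of 19 measured genes for integrin activation and adaptors none passed (3 at 24 h and 1 at 4 h under the unadjusted p), with medians of -0.06 and -0.09. BCAR1, the scaffold p130Cas, stood at 89.2 ± 8.6, 122 ± 17.3 and 157 ± 9.5 (adjusted p = 0.0518 and 0.350), ZYX, zyxin of focal adhesions, at 581 ± 61.7, 746 ± 282 and 893 ± 17.6, and FERMT2, kindlin 2, at 938 ± 13.4, 1119 ± 101 and 941 ± 28.9.

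In the list written for DDR signalling none of 17 genes passed (3 at each time under the unadjusted p), with medians of -0.01 and -0.04. The adaptor gene SHC1 stood at 1964 ± 100.5 at 24 h, 1742 ± 371 at 4 h and 2376 ± 140.3 in untreated cells. PIK3R1, a regulatory subunit of PI3 kinase, stood at 75.2 ± 8.6, 69.3 ± 14.7 and 49.3 ± 7.2, and KDM1A, a histone demethylase, at 237 ± 21.1, 269.6 ± 39.0 and 352 ± 31.3. The 3 relatives of MRC2 in the mannose receptor family did not pass, with 0 under the unadjusted p at either time, and were near background. PLA2R1 stood at 20.1 ± 4.3, 17.2 ± 7.1 and 20.2 ± 4.7, and MRC1 and LY75 had means at or below 8.07 in every group.

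Of 20 genes for collagen uptake and lysosomal cleavage none passed (5 at 24 h and 4 at 4 h under the unadjusted p), with medians of -0.04 at 24 h and -0.19 at 4 h. CTSB, a cysteine cathepsin that E64 inhibits, stood at 1302 ± 90.3 at 24 h, 1383 ± 249.3 at 4 h and 2089 ± 28.2 in untreated cells (adjusted p = 0.0738 and 0.148). RAB7A, a GTPase of late endosomes, stood at 1137 ± 5.9, 999 ± 107 and 1428 ± 141, and AP2A1, a subunit of the clathrin adaptor, at 39.97 ± 11.9, 43.4 ± 11.8 and 65.8 ± 6.0. Of 9 proteases that shed or process receptors none passed (1 at each time under the unadjusted p), with medians of 0.06 and -0.02. Among them stood MMP14, a membrane collagenase, at 303 ± 7.5, 309.9 ± 80.9 and 404 ± 25.85, MMP16 at 34.9 ± 5.4, 53.2 ± 11.7 and 53.6 ± 3.8, and PCSK6 at 27.5 ± 7.8, 34.2 ± 9.1 and 17.4 ± 9.4. Of 12 collagen chain genes 1 rose at 24 h, where 0.217% of all genes did, and 11 did not pass (4 under the unadjusted p, median -0.21), and 0 of 12 passed at 4 h (1 under it, median 0.05). Of the 12, 5 averaged below 16 over the 9 arrays. The gene that rose, COL3A1, was near background at 19.8 ± 9.0, 2.43 ± 0.65 and 2.13 ± 0.55 (adjusted p = 0.0487). It passed in 4 of 16 alternatives (adjusted p from 0.0423 to 0.376), and did not pass when any 1 of the 24 h or untreated arrays was left out (adjusted p from 0.0921 to 0.184). With the mean over its probe sets COL3A1 changed by 0.29 at 24 h, beside 0.95 for its brightest probe set. It did not pass there (limma adjusted p = 0.376). COL6A3 stood at 791 ± 54.7, 1030.4 ± 165.7 and 1211 ± 85.9 (adjusted p = 0.0893 at 24 h), and COL6A2 at 94.5 ± 4.2, 88.8 ± 29.9 and 125.3 ± 12.0.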

How the data were processed

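RNA from 9 samples had been hybridised to a one-colour Affymetrix array of 54675 probe sets, from 6 µg of RNA per sample per the labels. The deposited values are linear intensities, 1 per probe set and array. Per the submitters' processing notes, R 2.9.2 and RMA were used, with no role given. The values are not on a log scale, and the mean after trimming 2% at each end is 100 on every array, so each had been scaled by the time of deposit. How probes were summarised is not stated in the labels. The number of arrays limits the precision.

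Groups and replicate numbers came from the titles. Probe sets were named by the supplied platform annotation: without 62 control probe sets, 41091 name 1 gene, 1801 several, and 11721 are not listed. Symbols were updated by Entrez identifier (41037 matched). Values were transformed as log2(intensity + 16), so fold changes of dim genes are understated. limma 3.58.1 in R 4.3.3 (lmFit, eBayes) fitted 1 mean per group over all 9 arrays, once for 19775 genes (brightest probe set each) and once for 41091 probe sets. Each of 3 two-sided comparisons was adjusted by Benjamini-Hochberg at 0.05. The tests were tested on simulated data. The 8 genes and all lists were chosen with earlier results of these data known. Named list genes are those past the threshold and the 2 with the smallest p in each comparison with untreated. Alternatives were pseudocounts of 1 and 64, a filter at the 40th percentile, quantile normalization, median centring, the mean over probe sets, the compared groups alone, a replicate block and leaving out each array.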

Additional observations from a re-analysis of the deposited data

How the results depend on the processing

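No member gene passed in any of 17 alternatives and 3 comparisons, and 1 member probe set, of ITGB1 at 24 h, passed, with a pseudocount of 64. Counts over all features moved widely (24 h and 4 h against untreated, then 24 h against 4 h). With the main setting 93, 50 and 28 genes and 45, 16 and 15 probe sets passed. With a pseudocount of 1 these were 1, 6 and 9 genes and 0, 2 and 1 probe sets, and with 64 they were 833, 273 and 244 genes and 1058, 322 and 220 probe sets. The filter at the 40th percentile gave 581, 170 and 123 genes and 466, 126 and 67 probe sets, with fewer features tested. The compared groups alone gave 202, 2 and 1 genes and 74, 1 and 1 probe sets. At 4 h, quantile normalization gave 31 genes, and median centring 18 genes and 7 probe sets. The mean over probe sets gave 49 genes at 24 h and 26 at 4 h. Leaving out 1 array gave 0 to 256, 2 to 16 and 6 to 18 genes, and 0 to 277, 1 to 7 and 1 to 9 probe sets, with 0 genes and 0 probe sets at 24 h without replicate 1 of the 24 h group and 256 genes without replicate 2 of the 4 h group. The replicate block gave 1, 3 and 3 genes and 0, 1 and 1 probe sets. Whether the replicate numbers pair the arrays was not settled. Correlations were weak, with 0 of 9 same-numbered pairs above 0.1 (r from -0.0452 to 0.0569, other pairs -0.0488 to 0.0802). The best match, out of 3 arrays each, had the same number in 13 of 18 cases. Between 24 h and 4 h the same-numbered pairs had r of 0.036, 0.0357 and 0.0569, and the other pairs at most 0.00017. Between 24 h and untreated the same-numbered pairs had 0.0435, 0.0373 and 0.0143, and the other pairs at most 0.0152. Between 4 h and untreated the same-numbered pairs had -0.0452, 0.0477 and -0.0435. The main fit took the arrays as unpaired. Some uncalled log2 changes turned sign. With the mean over probe sets, DDR2 was -0.024 at 24 h, beside 0.47 for its brightest probe set, ITGA1 0.13 at 4 h, and at 24 h against 4 h ITGA2 was -0.11 and MRC2 -0.38. Quantile normalization gave ITGA2 -0.059 and median centring DDR2 0.010 at 24 h against 4 h. MRC2 209280_at at 4 h was -0.011 with a pseudocount of 64, -0.019 with quantile normalization and -0.031 with median centring. Leaving out 1 array, the log2 changes at 24 h spanned -0.097 to 0.072 for MRC2, -0.18 to 0.11 for DDR2 225442_at and -1.17 to -0.47 for MRC2 209280_at. At 4 h they spanned -0.17 to 0.14 for ITGA1, 0.29 to 0.68 for ITGA2, -0.37 to -0.056 for ITGA10, -0.19 to 0.034 for ITGB1, -0.13 to 0.042 for MRC2, -0.38 to 0.32 for MRC2 209280_at, -0.29 to 0.20 for ITGB1 216178_x_at, -0.17 to 0.21 for ITGA2 227314_at, -0.15 to 0.029 for DDR2 235631_at and -0.18 to 0.0027 for DDR2 205168_at. At 24 h against 4 h they spanned -0.15 to 0.24 for ITGA2, -0.35 to -0.038 for ITGA10, -0.30 to 0.21 for ITGA11, -0.14 to 0.15 for DDR2 and -0.011 to 0.10 for MRC2. The cause of these shifts was not tested for any of the alternatives.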
